A study of Mus musculus with 18 samples.

Results

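The genes described here are 10 immediate early response genes, taken by symbol: the zinc finger genes Egr1, Egr2 and Egr3, the orphan nuclear receptor genes Nr4a1, Nr4a2 and Nr4a3, the Krüppel-like factor genes Klf2, Klf4 and Klf6, and Ier2, which encodes a small nuclear protein. All 10 were listed in both FPKM tables, among 22017 genes in vitro and 13195 in bone marrow. The study compared mouse bone marrow cells of 3 Fabp4 genotypes by bulk RNA sequencing, and its title asks about leukemia stem cells and hematopoietic stem cells. Fabp4 encodes a fatty acid binding protein. In the in vitro set, which the labels describe as sorted from "vitro" bone marrow, there were 3 wild-type (WT), 3 heterozygous knockout (HET) and 3 homozygous knockout (KO) libraries. The bone marrow set, labelled as sorted from bone marrow, had 3 WT, 2 HET (replicates 1 and 3) and 3 KO libraries, and HET replicate 2 was not used here. The labels name no strain, age, sorted population, culture condition or leukemia driver, and no treatment other than the sort, so nothing beyond Fabp4 genotype and cell source defines a group.

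Immediate early genes are switched on within minutes of a growth factor, cytokine or stress signal, without new protein synthesis. MAP kinase and calcium or cyclic AMP signals reach them through factors already bound at their promoters, such as SRF with its ELK partners at CArG boxes and CREB at cyclic AMP response elements. EGR, NR4A and KLF proteins then act as transcription factors themselves, and in blood cells KLF4 and NR4A1 are known for roles in monocytes, and KLF2 for keeping lymphocytes quiescent.

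The promoters of the 3 genes that passed the test against WT in vitro (Nr4a1, Klf4 and Egr2) and of Nr4a2, whose KO libraries were all above WT in vitro and all below WT in bone marrow, are printed first, because the known inducers act there. Each line gives the 250 bases before the RefSeq start site (GRCm38.p6), 5′ to 3′ on the strand of the gene. Capitals mark the motifs searched on both strands: TGACG (the core of the cyclic AMP response element), TGACGTCA (the full element, which contains the core), GCGNGGGCG (the EGR consensus) and the CArG box. The Egr2 window lies at chr10:67537619-67537868 on the plus strand, that of Nr4a1 at chr15:101266596-101266845 on the plus strand, that of Nr4a2 at chr2:57124004-57124253 on the minus strand and that of Klf4 at chr4:55532476-55532725 on the minus strand. None of the 4 windows overlaps an exon of GENCODE M21 (0 bases), and those of Egr2 and Nr4a1 lie within the span of the gene, downstream of its first annotated start. In that annotation all 10 genes are protein coding, with Egr2 at chr10:67535475-67542188, Nr4a1 at chr15:101254269-101274795, Nr4a2 at chr2:57106830-57124003, Klf4 at chr4:55527143-55532466 and Klf2 at chr8:72319033-72321656 (mm10).
Egr2: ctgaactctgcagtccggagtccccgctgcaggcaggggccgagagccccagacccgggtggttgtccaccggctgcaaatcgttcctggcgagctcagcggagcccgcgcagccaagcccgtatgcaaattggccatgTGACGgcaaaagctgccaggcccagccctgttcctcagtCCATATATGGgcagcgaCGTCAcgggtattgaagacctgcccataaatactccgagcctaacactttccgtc
Nr4a1: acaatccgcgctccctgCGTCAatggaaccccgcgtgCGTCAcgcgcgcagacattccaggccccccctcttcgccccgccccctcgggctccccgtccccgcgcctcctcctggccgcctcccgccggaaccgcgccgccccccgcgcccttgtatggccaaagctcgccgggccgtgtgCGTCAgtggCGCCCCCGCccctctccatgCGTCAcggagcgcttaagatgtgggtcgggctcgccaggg
Nr4a2: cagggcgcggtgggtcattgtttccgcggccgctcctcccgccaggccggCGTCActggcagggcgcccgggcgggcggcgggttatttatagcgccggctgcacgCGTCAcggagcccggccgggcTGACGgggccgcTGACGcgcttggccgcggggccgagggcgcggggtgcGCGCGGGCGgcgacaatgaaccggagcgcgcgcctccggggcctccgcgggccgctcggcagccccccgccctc
Klf4: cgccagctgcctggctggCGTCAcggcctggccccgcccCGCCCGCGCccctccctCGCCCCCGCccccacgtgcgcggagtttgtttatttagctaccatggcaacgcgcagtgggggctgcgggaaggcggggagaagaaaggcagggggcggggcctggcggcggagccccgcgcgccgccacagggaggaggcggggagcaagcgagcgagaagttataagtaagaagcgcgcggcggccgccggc

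The Egr2 window held 2 TGACG cores and 1 CArG box. The Nr4a1 and Nr4a2 windows each held 4 cores and 1 EGR consensus, and that of Klf4 held 1 core and 2 EGR consensus matches. Of the other members with a window, Nr4a3 also held 4 cores, Klf2 held 1 core and 1 EGR consensus, and Klf6 held none of these letters. Unlike the printed windows, these 3 overlap GENCODE M21 exons, that of Nr4a3 by 152 bases, of Klf2 by 29 and of Klf6 by 7. The full element TGACGTCA was in none of the 7 windows (0 matches). Among 32817 promoter windows of the same length, 17.7% held at least 1 TGACG, 0.137% held 4 or more, 1.55% held TGACGTCA, 4.7% held the EGR consensus and 1.47% held a CArG box. These are matches of letters, and no binding was measured. The shares are over all windows and are not matched for base composition. The G and C content was 61.6% in the Egr2 window, 74.4% in that of Nr4a1, 80.0% in that of Nr4a2 and 74.0% in that of Klf4. How rare the matches are among windows of like content was not tested. The RefSeq table matched 7 of the 10 genes, and no window is shown for Egr1, Egr3 and Ier2.

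**Figure D1:**
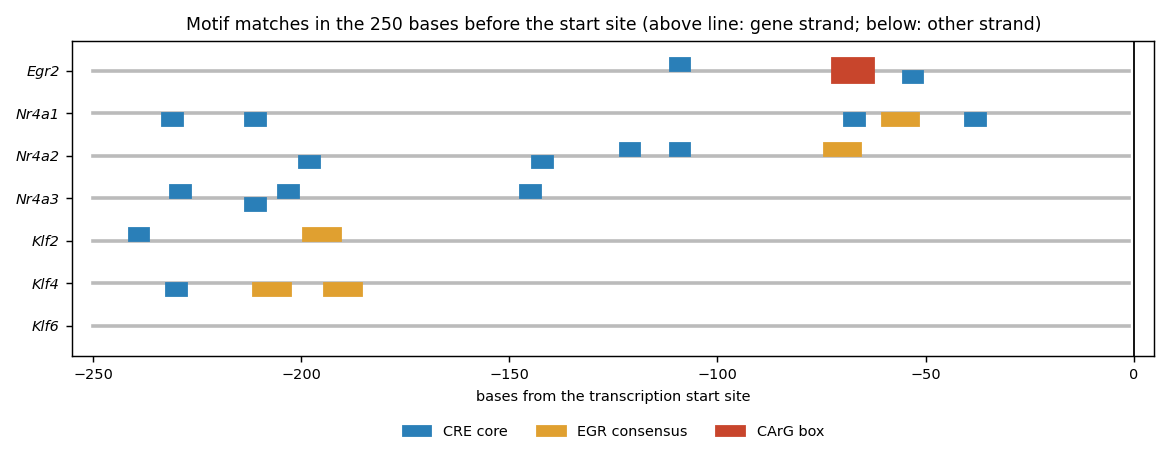
Positions of motif matches in the 250 bases before the start site of 7 genes, with distance from the start site in bases on the x axis and a line per gene on the y axis; marks above a line are on the gene's strand, marks below it on the other strand, and a mark across the line reads the same on both. The 3 Nr4a genes each show 4 TGACG cores, and the CArG box is in the Egr2 window. Of the Nr4a3 window 152 bases lie in GENCODE exons.

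The in vitro libraries were estimated at 30.7 to 36.8 M fragments and those of bone marrow at 3.96 to 35.8 M, where HET 1 and HET 3 were the shallowest at 3.96 and 11.7 M. Fabp4 itself was listed at 0 to 0.330 FPKM in WT, at 0 to 0.0676 in HET and at 0 in KO in vitro, too low to check the genotype labels, and it was not analysed in bone marrow. The rank correlation across genes between any pair of libraries (Spearman) was 0.962 to 0.97 in vitro and 0.427 to 0.621 in bone marrow. WT 1 of the in vitro set stood apart in a small set of genes that includes Klf2, and results that rest on it are given with and without it.

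By level in vitro the members fell into an abundant and a scarce group. FPKM is scaled by transcript length and can be compared between genes. Egr1 was the highest, with means of 284 FPKM in WT, 264 in HET and 320.2 in KO, followed by Ier2 with 159, 192 and 228 FPKM. Klf6 (68.0, 58.6 and 63.0 FPKM) and Klf2 (70.3, 42.5 and 43.1 FPKM) came next. Nr4a1, Nr4a2, Klf4, Egr2 and Egr3 had means between 0.703 and 5.86 FPKM in every genotype, and Nr4a3 stayed under 0.05 FPKM in all 9 libraries. The genes that passed the test against WT all belonged to the scarce group.

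**Figure D2:**
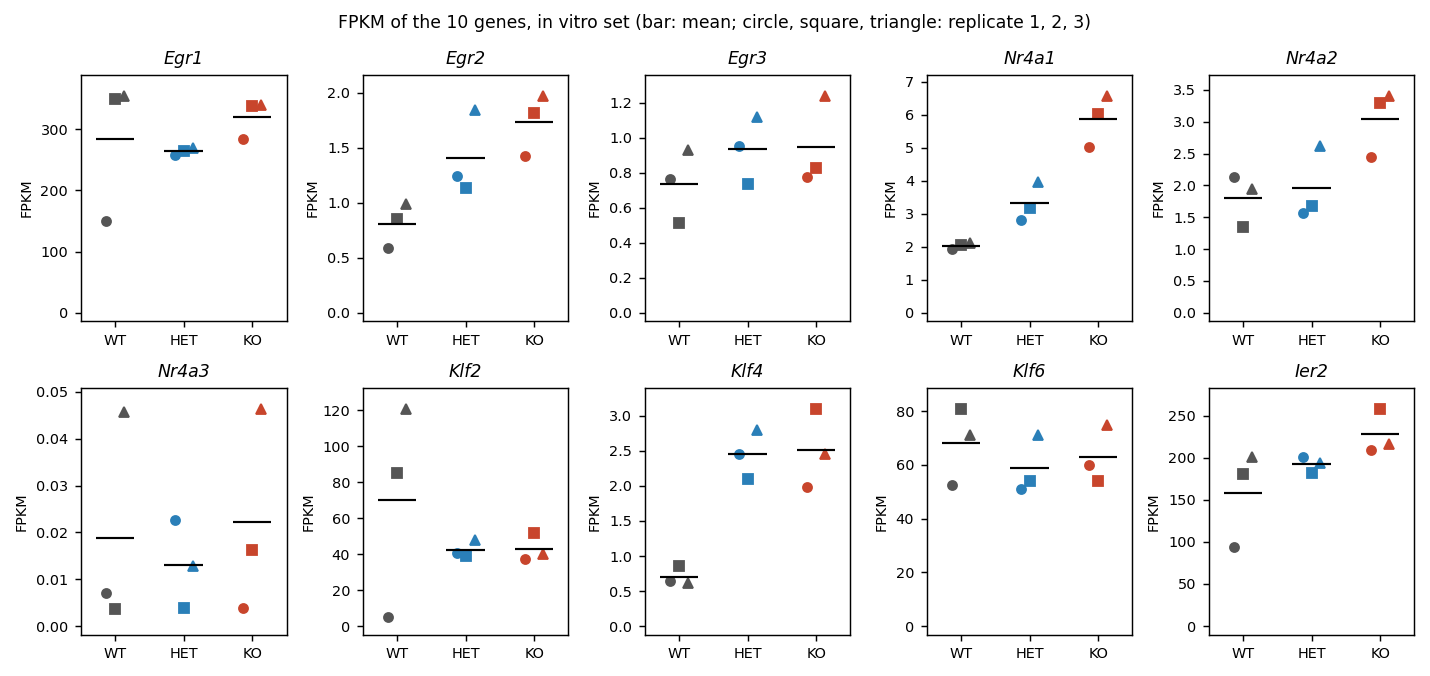
FPKM of each gene in the 9 in vitro libraries by genotype, with the mean as a bar and the replicate number as the marker shape; each panel has its own linear axis. Nr4a1 rises from a mean of 2.03 in WT to 3.32 in HET and 5.86 in KO, and WT 1 lies low for Egr1, Klf2 and Ier2.

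Nr4a1, Klf4 and Egr2 were higher in KO than in WT in vitro, by ratios of mean FPKM of 2.88, 3.57 and 2.15, and Nr4a1 and Klf4 were higher in HET than in WT, by 1.63 and 3.49. Nr4a1 was also higher in KO than in HET. In these bulk libraries, more transcript per cell and more cells of a type that expresses the gene cannot be told apart. Tests used limma (adjusted over all genes) on log2(FPKM + 1) over 10877 genes with Benjamini-Hochberg adjustment and a threshold of 0.05, and log2 changes on that scale understate the change of scarce genes. KO against WT and HET against WT share the WT libraries.

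Of the 10 members, 8 passed the filter of at least 1 FPKM in at least 3 libraries. In KO against WT 3 were called, all higher, where 2.99% of all tested genes were called in either direction and 1.36% as higher. In HET against WT 2 were called, both higher, with 3.68% of all genes called and 2.94% higher. In KO against HET 1 was called, with 1.99% of all genes called and 0.598% higher. Egr2 and Klf4 reached 1 FPKM in none of the WT libraries (0 of 3 each) and passed the filter through HET and KO, so these counts do not speak for the 10 genes as a group. Under a filter on the mean over all 9 libraries, chosen after the data were seen, both stayed tested, with adjusted p of 0.0422 for Egr2 and 0.00228 for Klf4 in KO against WT.

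Nr4a1 encodes NUR77, a nuclear receptor that acts without a known hormone ligand and is needed for patrolling monocytes. It was at 1.93, 2.06 and 2.11 FPKM in WT, at 2.82, 3.18 and 3.97 in HET and at 5.02, 6.01 and 6.56 in KO. The 3 genotypes did not overlap, in the order KO over HET over WT, and the WT libraries were close together. Against WT the log2 change was 1.17 ± 0.12 in KO (SE, adjusted p = 0.000813, limma) and 0.50 ± 0.12 in HET (adjusted p = 0.0442, limma). KO exceeded HET by 0.67 ± 0.12 (adjusted p = 0.014, limma). The KO against WT call held under all 17 alternatives, with adjusted p of 0.000791 to 0.00783. In HET against WT it was lost under 12 of 17 alternatives, where adjusted p reached 0.158, among them leaving out any WT or HET library or KO 3, and in KO against HET it was lost without HET 1, HET 2 or KO 3, where adjusted p reached 0.0879.

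Klf4 encodes a zinc finger factor that promotes monocyte differentiation and is widely known as a reprogramming factor. Its WT libraries were at 0.649, 0.851 and 0.609 FPKM, its HET libraries at 2.46, 2.10 and 2.80 and its KO libraries at 1.99, 3.09 and 2.46. Both mutant genotypes lay above every WT library and overlapped each other. The log2 change against WT was 1.03 ± 0.13 in KO (SE, adjusted p = 0.00231, limma) and 1.02 ± 0.13 in HET (adjusted p = 0.00134, limma). KO and HET differed by 0.02, with a 95% interval of -0.27 to 0.31. Among the 16 alternatives that tested it, the calls held in both comparisons, with adjusted p up to 0.0188 in KO and 0.0147 in HET. Klf4 thus reached its higher level in HET, while Nr4a1 was higher again in KO.

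Egr2 encodes a zinc finger factor of myelinating Schwann cells that also acts in macrophages and lymphocytes. It stood at 0.588, 0.853 and 0.988 FPKM in WT, at 1.25, 1.13 and 1.84 in HET and at 1.43, 1.82 and 1.97 in KO. Every HET and KO library was above every WT library, and HET and KO overlapped. The log2 change was 0.60 ± 0.14 in KO (SE, adjusted p = 0.0437, limma) and 0.41 ± 0.14 in HET (adjusted p = 0.115, limma). The KO call was close to the threshold and was lost under 10 of 16 alternatives, with adjusted p up to 0.189 without KO 3. It was also lost without WT 1, WT 2, HET 1, HET 2, KO 1 or KO 2, and adjusted p was then 0.0541 to 0.105.

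Nr4a2 encodes NURR1, best known from dopamine neurons. It was at 2.13, 1.35 and 1.94 FPKM in WT, at 1.57, 1.67 and 2.63 in HET and at 2.45, 3.29 and 3.40 in KO. The KO libraries were above the WT libraries and overlapped HET. With a log2 change of 0.53 ± 0.16 (SE), KO against WT did not pass the threshold (adjusted p = 0.0998, limma), and HET against WT was at 0.07 (adjusted p = 0.836, limma). Nr4a3, which encodes NOR1, was listed between 0.0037 and 0.0463 FPKM, and the genotypes overlapped throughout. By an exact two-sided permutation test its p was 0.7 for KO against WT, 0.9 for HET against WT and 0.6 for KO against HET, where 0.1 is the smallest possible. Within the Nr4a family the order by level was Nr4a1, Nr4a2, Nr4a3 in HET and KO, and in WT the first and the second overlapped.

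**Figure D3:**
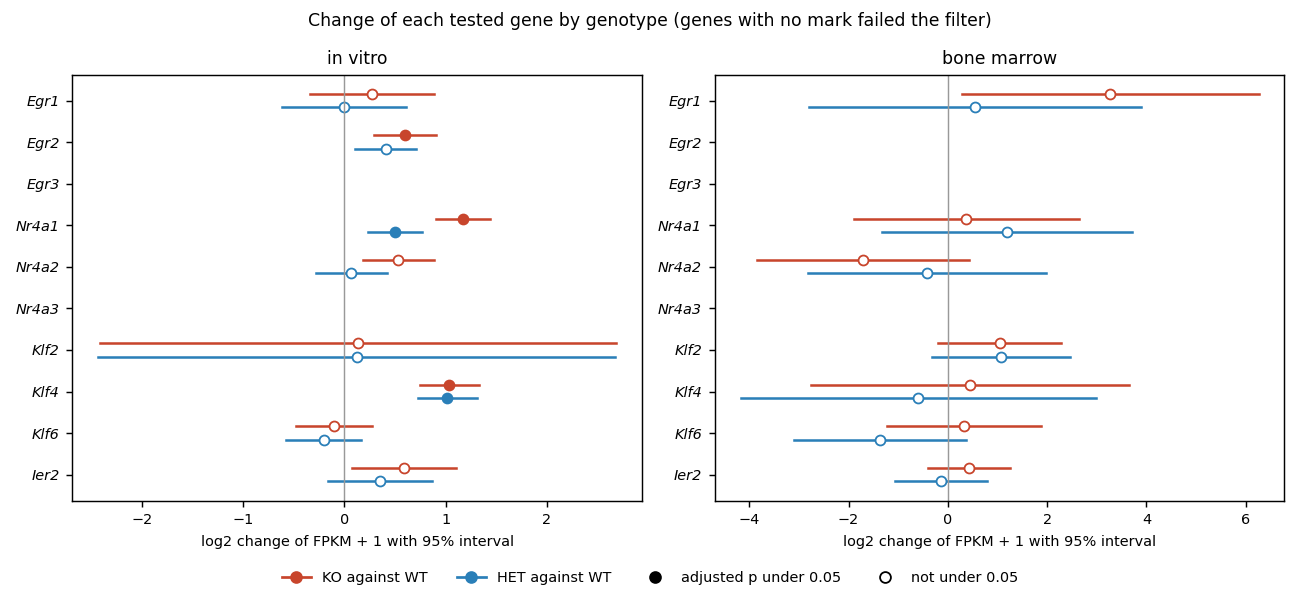
Fitted log2 change of FPKM + 1 with its 95% interval for each tested gene, KO against WT and HET against WT, in vitro (left) and in bone marrow (right); filled points have an adjusted p under 0.05. In vitro the filled points are Egr2, Nr4a1 and Klf4 in KO and Nr4a1 and Klf4 in HET, and in bone marrow no point is filled.

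Egr1 encodes the best known immediate early zinc finger factor, which also restrains stem cell proliferation. It was at 149.8, 349 and 354 FPKM in WT, at 258, 264 and 269 in HET and at 284, 338 and 339 in KO. WT 1 was the lowest and WT 2 and WT 3 the highest of the 9 libraries, so the WT range enclosed both other genotypes. The log2 change was 0.27 ± 0.27 in KO (SE, adjusted p = 0.632, limma) and -0.00 in HET (adjusted p = 0.995, limma). Without WT 1 it was -0.14 in KO and -0.41 in HET, and the HET value then passed the threshold (adjusted p = 0.0265, limma). Egr3, a close relative of Egr2, was between 0.511 and 1.24 FPKM, reached 1 FPKM in 2 libraries and was not in the fit. Its exact two-sided permutation p was 0.4 for KO against WT, 0.4 for HET against WT and 1 for KO against HET.

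Klf2 had the widest spread of the members. It was at 5.0, 85.4 and 121 FPKM in WT, at 40.5, 38.8 and 48.2 in HET and at 37.4, 51.7 and 40.1 in KO. HET and KO lay close together, and WT had 1 library far below them and 2 above. The range over the WT libraries, 4.34 on the log2 scale, was rank 1 of the 10877 tested genes, whose median range was 0.26, while the range of Nr4a1 was 0.08. In the fit the log2 change was 0.13 ± 1.07 in KO (SE, adjusted p = 0.959, limma) and 0.12 ± 1.07 in HET (adjusted p = 0.958, limma). Leaving out WT 1 turned both: the log2 change of Klf2 was then -1.23 in KO (adjusted p = 0.00434, limma) and -1.24 in HET (adjusted p = 0.00229, limma). Leaving out KO 2 also changed the sign in KO, without a call.

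Klf6 encodes a widely expressed Krüppel-like factor induced in injury and in activated macrophages. It was at 52.6, 80.6 and 70.9 FPKM in WT, at 50.9, 53.9 and 71.1 in HET and at 59.9, 54.1 and 74.9 in KO, with all genotypes overlapping. Its log2 change was -0.10 in KO (adjusted p = 0.793, limma) and -0.20 in HET (adjusted p = 0.497, limma). Ier2 was at 93.5, 181 and 201 FPKM in WT, at 201, 182 and 193 in HET and at 209.6, 257 and 217 in KO. The KO libraries were above every HET and WT library, and HET overlapped WT. With 0.59 ± 0.23 (SE, adjusted p = 0.194, limma) in KO and 0.35 ± 0.23 (adjusted p = 0.391, limma) in HET, Ier2 did not pass the threshold, and without WT 1 the values were 0.25 and 0.01.

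The groups did not overlap, with KO above WT, for 5 of the 8 tested members (Egr2, Nr4a1, Nr4a2, Klf4 and Ier2), where 13.8% of all tested genes lay that way. HET lay above WT for 3 (Egr2, Nr4a1 and Klf4), with 17.2% of all genes that way, and KO above HET for 3 (Egr1, Nr4a1 and Ier2), with 11.3%. Egr2 and Klf4 are counted here although they passed the filter through HET and KO, where they are high, so the counts above WT are a description and are not read against those shares. Summed over Nr4a1, Nr4a2 and Nr4a3, the level was 3.42 to 4.09 FPKM in WT, 4.41 to 6.60 in HET and 7.47 to 10.01 in KO. The Egr sum, nearly all Egr1, was 151 to 356 FPKM in WT, 260.2 to 272 in HET and 286 to 342 in KO. That of Klf2, Klf4 and Klf6 was 58.2 to 192 FPKM in WT, 93.8 to 122 in HET and 99.3 to 118 in KO.

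WT 1 was low for several members at once. Against the lowest of the other 8 libraries, on the log2(FPKM + 1) scale, it was at -2.68 for Klf2 (rank 1 of all tested genes), at -0.95 for Ier2 (rank 11) and at -0.78 for Egr1 (rank 21). Nr4a1 was at -0.06, and Klf4 and Klf6 were inside the range of the others. In FPKM + 1, more than 2 times under the lowest other library lay 7 genes in WT 1 and 0 or 1 in each other in vitro library. Besides Klf2 these were Camp, S100a9, H1f2, Ngp, Tpsb2 and S100a8, named here after their values were seen. Camp, Ngp, S100a8 and S100a9 encode neutrophil granule and cytosolic proteins, and Tpsb2 is a mast cell tryptase. Summed over the 5 mast cell and basophil markers WT 1 was at 879.6 FPKM, and the other libraries were at 1069.7 to 2064 FPKM. Over 14 monocyte and macrophage markers WT 1 was at 275 FPKM with 294 to 502 in the others, and over 13 neutrophil markers at 6033 FPKM with 5573 to 9871 in the others. The part of these cells in the low Klf2, Egr1 and Ier2 values was not tested. The KO against WT changes of Nr4a1, Klf4 and Egr2 without WT 1 were 1.15, 1.01 and 0.51.

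**Figure D4:**
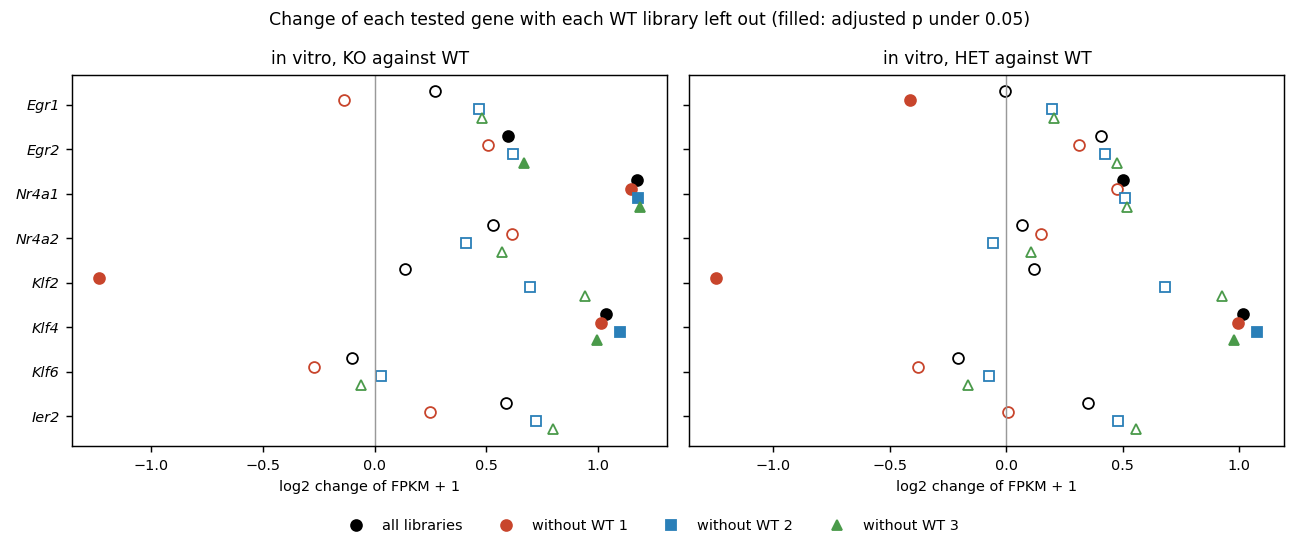
Log2 change of FPKM + 1 for each tested gene in vitro with all 9 libraries and with each WT library left out, KO against WT (left) and HET against WT (right); filled marks have an adjusted p under 0.05. Nr4a1 and Klf4 in KO stay above 0.9 in every fit, and Klf2 moves from 0.13 to -1.23 when WT 1 is left out.

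Other immediate early genes were listed beside the members, with the earlier results of these data known. Of 27 listed genes 25 were tested. In KO against WT 7 were called higher and 0 lower, where 2.99% of all tested genes were called and 1.36% as higher. Under an unadjusted p of 0.05 (limma) were 16, of which 14 were higher, with 19.4% of all tested genes. The median log2 change was 0.40 over the list and 0.04 over all tested genes. In HET against WT 6 were called, all higher, where 3.68% of all genes were called and 2.94% as higher. The medians there were 0.24 and 0.04. Fos, an AP-1 subunit gene, averaged 83.5 FPKM in WT, 269 in HET and 389.97 in KO (log2 change in KO 2.21, adjusted p = 1.83e-06, limma). Fosb, another AP-1 gene, changed by 1.97, Dusp1, which encodes a MAP kinase phosphatase, by 1.42 and Junb by 0.84 in KO. On this log2(FPKM + 1) scale, which understates scarce genes, the changes of Nr4a1 (1.17) and Klf4 (1.03) in KO lay between those of Dusp1 and Junb. At a pseudocount of 0.1 those of Nr4a1 and Klf4 were 1.475 and 1.692, so no order of size is read from these values.

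Partners and relatives of the members moved both ways. Of 5 tested genes 2 rose and 1 fell in KO against WT, where 2.99% of all tested genes were called. Rxrb, which encodes a retinoid X receptor that pairs with NR4A1 and NR4A2, rose from a mean of 43.5 to 54.6 FPKM (0.32 on the log2 scale, adjusted p = 0.0331, limma), and Ier5l, a relative of Ier2, from 2.16 to 3.40 FPKM (0.48, adjusted p = 0.0331, limma). Nab2, whose product binds EGR proteins and represses their activity, fell from 13.9 to 10.5 FPKM (-0.37, adjusted p = 0.0467, limma). Rxra stayed at 1.05 in WT and 1.12 FPKM in KO (adjusted p = 0.846, limma). Of 9 other tested Klf genes 0 were called by limma in KO against WT, with 3 under an unadjusted p of 0.05, as were 19.4% of all tested genes. Klf16 was at 8.51 FPKM in WT and 11.3 in KO, Klf1 at 20.2 and 26.1, Klf5 at 2.73 and 3.79 and Klf7 at 3.29 and 3.80, with adjusted p from 0.136 to 0.464 (limma).

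Genes known to act upstream of the members were also listed. In KO against WT in vitro 2.99% of all tested genes were called by limma, and 19.4% were under an unadjusted p of 0.05. Of 13 tested MAP kinase genes 1 was called in KO against WT: Map2k1, which encodes the ERK kinase MEK1, fell from 65.2 to 41.4 FPKM (log2 change -0.65, adjusted p = 0.00346, limma). Mapk7, the gene of ERK5, was at 2.98 FPKM in WT, 4.45 in HET and 4.59 in KO (adjusted p = 0.0526 in KO, limma), and Rps6ka1 had an adjusted p of 0.447 (limma). Of 14 SRF, CREB and MEF2 regulators 0 were called by limma, with 2 under an unadjusted p of 0.05. The leading ones were Atf1 (-0.17), Mrtfa (0.29), Elk3 (0.16) and Crtc1 (0.24), with adjusted p from 0.168 to 0.316 (limma). Of 10 heat shock genes, which encode chaperones induced by misfolded protein, 0 were called by limma in KO against WT, with 2 under an unadjusted p of 0.05. Their summed level was 1408 to 1438 FPKM in WT, 1349.9 to 1559 in HET and 1324 to 1388 in KO.

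Of 6 tested genes reported as EGR1 targets 0 were called in KO against WT by limma, with 1 under an unadjusted p of 0.05. Of all tested genes 2.99% were called there, and 19.4% were under that unadjusted p. In HET against WT 3.68% of all tested genes were called. Gdf15, a stress cytokine gene, averaged 1.72 FPKM in WT against 2.98 for KO (limma adjusted p = 0.165), and Cd44, Tnf and Icam1 had adjusted p from 0.283 to 0.782 (limma). In HET against WT the list had 1 call, Fn1, the fibronectin gene, with a log2 change of 1.87 (adjusted p = 9.57e-05, limma); it was singled out after its values were seen.

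Some cell type markers differed between genotypes in vitro. Of all tested genes 2.99% were called in KO against WT, 1.36% as higher. In HET against WT 3.68% were called, 2.94% as higher. Under an unadjusted p of 0.05 (limma) in KO against WT were 19.4%. Of 9 tested monocyte and macrophage markers 1 was called in KO against WT and 4 in HET against WT, all higher. Ccr2, a chemokine receptor of monocytes, was at 12.3 FPKM in WT, 34.1 in HET and 26.1 in KO (log2 change in KO 1.03, adjusted p = 0.000439, limma). Of 13 neutrophil markers 0 were called in KO against WT by limma, with 1 under an unadjusted p of 0.05, and 3 in HET against WT, all higher. Of 7 stem and progenitor markers 2 were called in KO against WT and 0 in HET against WT by limma, where 3 were under an unadjusted p of 0.05, as were 23.4% of all tested genes. Hlf went from 0.731 to 2.63 FPKM in KO (log2 change 1.07, adjusted p = 0.00103, limma) and Flt3 from 1.39 to 2.73 FPKM (0.64, adjusted p = 0.0168, limma). With a WT mean under 1 FPKM, Hlf could not pass the filter through the WT libraries alone. Counts of stem and progenitor markers are therefore a description. The monocyte and macrophage sum was 275 to 399 FPKM in WT, 408 to 461 in HET and 294 to 502 in KO, with C1qa at 0 in every WT and KO library. The stem and progenitor sum was 159 to 202 FPKM in WT, 141 to 159 in HET and 186 to 210.1 in KO. In KO against HET, where Nr4a1 was called, 3 of the 7 stem and progenitor markers were called higher. Called lower there were 3 of the 9 monocyte and macrophage markers, 2 of the 13 neutrophil markers and the 1 tested stromal marker, with 1.99% of all tested genes called in either direction. Klf4 was higher in both mutant genotypes, as Ccr2 was, and the part of these cells in the Klf4 and Nr4a1 values was not tested.

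Pf4, a platelet gene, was the 1 called of 5 megakaryocyte markers in KO against WT (97.8 to 71.4 FPKM, adjusted p = 0.0451, limma). None of the tested B cell, T and NK cell, erythroid, endothelial, stromal or mast cell markers was called there (0 of 1, 2, 6, 1, 1 and 5, limma). Under an unadjusted p of 0.05 were 1 T and NK cell and 2 erythroid genes of these, with 19.4% of all tested genes. By limma 2.99% of all tested genes were called. The smallest adjusted p of each list were those of Lck (adjusted p = 0.0672), Hba-a1 (0.154), Pdgfrb (0.275), Pecam1 (0.562), Fcer1a (0.572) and Cd79b (0.578).

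For the 3 members called in vitro, the genes with the most similar pattern were sought among tested genes with a mean of at least 2 FPKM, by the root mean square difference of log2(FPKM + 1), centred on WT, over 9 libraries. For Nr4a1 these were Zfp36 (0.241), an mRNA decay factor gene that is itself an immediate early gene, AA467197 (0.264) and Junb (0.264), of 9509 candidates. For Klf4 they were Thbs1 (0.131), the thrombospondin gene, Ms4a6c (0.233) and Il36g (0.261), of 9510 candidates. Thbs1 was at 115 FPKM in WT, 219 in HET and 220.0 in KO. For Egr2 they were Camk1 (0.142), Ly6a (0.144) and Dok3 (0.15). Distances are smaller for a gene whose own changes are small, so they do not compare between the 3 members. The scale also understates changes of scarce genes, so a close match with an abundant gene is not a like change in FPKM. Klf4 went from a mean of 0.703 FPKM in WT to 2.51 in KO, a ratio of 3.57, while Thbs1 went from 115 to 220.0.

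In bone marrow the members were listed at other levels, in a table that may have been scaled separately. Ier2 was the highest there, with means of 1062 FPKM in WT, 1084 in HET and 1408 in KO. Means over the genotypes were 193 to 345 FPKM for Klf2, 82.0 to 192 for Klf6 and 35.1 to 262 for Egr1, and Nr4a1 had means of 30.7, 76.1 and 39.5 FPKM in WT, HET and KO. Egr2, Egr3 and Nr4a3 were listed at 0 in 7 of 8 libraries each, with the single value above 0 at 0.340, 0.306 and 0.238 FPKM, and were not tested. A listed 0 may reflect an estimate that failed, so it is given only as listed.

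**Figure D5:**
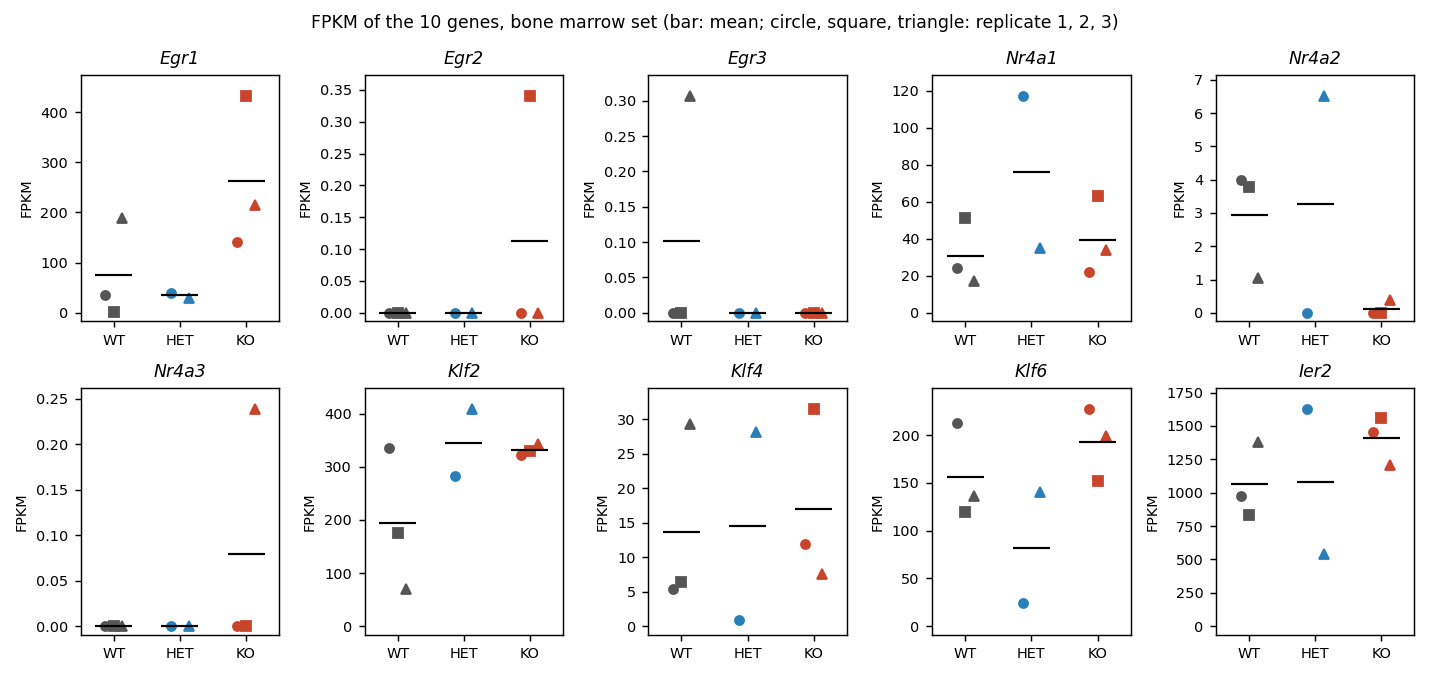
FPKM of each gene in the 8 bone marrow libraries by genotype, with the mean as a bar and the replicate number as the marker shape; HET has replicates 1 and 3, and each panel has its own linear axis. Libraries of a genotype differ widely, as for Egr1 in WT (1.13 to 188), and Nr4a2 is at or near 0 in the 3 KO libraries.

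Of the 7 tested members 0 were called in any bone marrow comparison by limma, with 1 (Egr1 in KO against WT) under an unadjusted p of 0.05. Of all 7246 tested genes 0% were called in KO against WT, 0.262% in HET against WT and 0.166% in KO against HET, and 5.11%, 12.4% and 11.3% were under an unadjusted p of 0.05 in the same order. The median log2 change of all tested genes was -0.18 in KO against WT, -0.99 in HET against WT and 0.83 in KO against HET, so values that involve HET are read against that shift.

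Egr1 was at 35.2, 1.13 and 188 FPKM in WT, at 40.1 and 30.02 in HET and at 141, 432 and 214 in KO. KO lay above HET, as 20.7% of all tested genes did, and overlapped WT through WT 3. The log2 change of KO against WT was 3.27 ± 1.36 (SE, adjusted p = 0.878, limma), with a 95% interval of 0.29 to 6.26. Nr4a2 was at 3.98, 3.79 and 1.04 FPKM in WT, at 0 and 6.51 in HET and at 0, 0 and 0.383 in KO. Every KO library was below every WT library, where 8.14% of all tested genes lay that way. Nr4a2 reached 1 FPKM in 4 libraries, the 3 of WT and HET 3, and in 0 of KO. It thus passed the filter through libraries where it is high and is not read against that share. Its log2 change was -1.71 ± 0.98 (SE, adjusted p = 0.993, limma).

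Nr4a1 was at 24.1, 50.9 and 17.0 FPKM in WT, at 117 and 35.1 in HET and at 21.9, 63.1 and 33.7 in KO. The genotypes overlapped, and the log2 change of KO against WT was 0.37, with a 95% interval of -1.89 to 2.63 (adjusted p = 0.999, limma). That interval includes the in vitro value of 1.17, so the bone marrow libraries do not separate a change of that size from none. Klf4 was at 5.45, 6.36 and 29.3 FPKM in WT, at 0.903 and 28.2 in HET and at 12.0, 31.4 and 7.55 in KO, again overlapping, with a log2 change of 0.44 and a 95% interval of -2.76 to 3.64. For both genes a change as large as in vitro was not detectable with this spread. Both genes are scarcer in vitro, so the log2(FPKM + 1) scale understates their change more there. At a pseudocount of 0.1 the in vitro changes were 1.475 for Nr4a1 and 1.692 for Klf4, which also lie within these intervals.

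Klf2 was at 335, 176 and 70.0 FPKM in WT, at 282 and 408 in HET and at 323, 329 and 342 in KO. The KO libraries agreed closely and overlapped the WT range, with KO 3 just above WT 1, the highest WT library (log2 change 1.04 ± 0.57, SE, adjusted p = 0.993, limma). Klf6 was at 212, 119 and 137 FPKM in WT, at 23.9 and 140.1 in HET and at 227, 152 and 198 in KO. KO lay above both HET libraries, and its log2 change against HET was 1.69 ± 0.79 (SE, adjusted p = 0.456, limma). Without HET 3 that change was 2.94 (adjusted p = 0.0313, limma), and it then rested on HET 1, the shallowest library. Ier2 was at 973, 835 and 1378 FPKM in WT, at 1623 and 544 in HET and at 1455, 1560 and 1208 in KO, with a log2 change of 0.43 in KO against WT.

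In bone marrow none of the tested cell type markers was called by limma in any comparison, so the sums here are a description. Only the neutrophil sum was higher in every HET and KO library than in every WT library. The sum over 13 neutrophil markers was 7615 to 57195 FPKM in WT, 132508 to 132780 in HET and 137090 to 212072 in KO. WT 3, which had the lowest sum, had the highest Egr1, Klf4 and Ier2 of the WT libraries. It also had the lowest Klf2, Nr4a1 and Nr4a2 of them, so the members went both ways. By gene the 12 tested neutrophil markers were mixed in HET against WT, where 6 had a log2 change above 0. In KO against WT 10 of them did. Ly6g was at 0 in every WT and HET library, and Ltf and Cxcr2 were at 0 in both HET libraries. Over the 11 listed monocyte and macrophage markers the sum was 3729 to 5006 FPKM in WT, 2528 to 3329 in HET and 2674 to 4096 in KO, and Fcgr1 was at 0 in every HET and KO library. Over 6 stem and progenitor markers it was 86.3 to 129 FPKM in WT, 12.8 to 50.9 in HET and 16.9 to 109 in KO, with Kit, Cd34 and Ly6a at 0 in both HET libraries. The monocyte and macrophage sum and the stem and progenitor sum overlapped between WT and KO. The HET values come from the shallowest libraries, at 3.96 and 11.7 M fragments. The median log2 change of all tested genes in HET against WT was -0.99. The part of these cells in the member values was not tested.

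The KO against WT changes of the 7 members tested in both sets were then compared by the difference of the fits, over 6915 genes. In no member did the difference pass the threshold (0 called, limma; 0 of all genes and 5.18% under an unadjusted p of 0.05). The difference, in vitro minus bone marrow, was 2.24 ± 0.99 for Nr4a2 (SE, adjusted p = 0.933, limma) and -3.001 ± 1.39 for Egr1 (adjusted p = 0.95, limma). For Nr4a1 it was 0.80 ± 1.04 (adjusted p = 0.995, limma) and for Klf4 0.59 ± 1.47 (adjusted p = 1, limma). The in vitro calls of Nr4a1 and Klf4 are therefore not shown to be particular to the in vitro cells. Both are scarcer in vitro, where log2(FPKM + 1) understates a change more than in bone marrow, so their differences are not on an even scale.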

How the data were processed

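The values are FPKM (fragments scaled by transcript length and by the mapped fragments of a library) that the authors deposited in a table per set, per the file headers. TRIzol extraction and the VAHTS Universal V6 kit are named per the labels' protocols, and mm10 as the build per the submitters' processing notes. Which aligner, counter, annotation and strandedness were used is not given in the sources used here. FPKM hold no counts, so depth was estimated from the steps between low values of single-exon genes, of which 78.3 to 87.5% lay within 0.1 of a whole fragment. These depths entered no test.

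Tests used limma 3.58.1 (R 4.3.3, statmod 1.5.0) with an intensity trend and robust moderation, in a fit per set with a mean per genotype. Members that failed the filter were tested by exact permutation where above 0 in at least 3 libraries. The difference between the sets combined both fits with a Welch approximation. The fits were also run on simulated data, with changes set in more abundant genes and larger than those of the called members. That run does not show how well changes like those of the members are found. The series' design mentions 3 mice for each genotype without tying a library to a mouse, so p-values measure the spread between libraries. Motifs were searched in Python 3.11.15.

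The members and all gene lists were chosen with earlier results of these data known. Named were the members, up to 4 tested genes per list with the smallest p in KO against WT in vitro, and the 3 genes most like each called member. Some genes that this rule names are not reported here. Alternatives were a pseudocount of 0.1, other filters (none, FPKM of 5, and a mean over all libraries, the last added after the data were seen), quantile and median-ratio scaling, only the compared groups, a replicate block, a joint fit and leaving out each library.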

Additional observations from a re-analysis of the deposited data

Results flagged for a closer look

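In the order of its KO and WT libraries Nr4a2 went opposite ways in the 2 sets, without a call in either. In vitro every KO library was above every WT library, with means of 3.05 and 1.81 FPKM, and in bone marrow every KO library was below every WT library, with means of 0.128 and 2.94 FPKM. The difference between the 2 changes was 2.24 on the log2 scale (limma, adjusted p = 0.933 over 6915 genes), so it did not pass the threshold, and neither change passed it within its own set. Of the 3 bone marrow KO libraries, 2 listed Nr4a2 at 0, as did HET 1, and a listed 0 may reflect an estimate that failed. No KO library reached 1 FPKM there, so Nr4a2 passed the filter in bone marrow through the WT libraries and HET 3. Of all tested genes 13.8% lay with KO above WT in vitro. In bone marrow 8.14% lay with KO below WT, a share that Nr4a2 is not read against because of the filter.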

How the results depend on the processing

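In vitro, the Nr4a1 call in KO against WT and the Klf4 calls in KO and HET against WT held under every alternative that tested them. The number of genes called in KO against WT went from 325 to 152 without a filter on low values and to 176 with only the compared groups, and the number of members called went from 3 to 1 at a filter of 5 FPKM, which Egr2 and Klf4 do not pass. In HET against WT the genes called went from 400 to 250 without a filter, and the members called from 2 to 1 without a filter, with quantile normalization, with median-ratio size factors and with only the compared groups, and to 0 at a filter of 5 FPKM. In KO against HET 216 genes became 136 at a filter of 5 FPKM. Higher calls made up 45.5% in KO against WT and 80% in HET against WT, but 35.1% and 60.2% with quantile normalization and 35.2% and 72.6% with median-ratio size factors. In bone marrow KO against WT 0 genes became 2 with quantile normalization and 1 with a filter on the mean, which was added after the data were seen. In bone marrow HET against WT 19 genes became 35 at a pseudocount of 0.1, 12 with quantile normalization and 0 with only the compared groups. In bone marrow KO against HET 12 genes became 31 at that pseudocount, 6 without a filter, 7 with quantile normalization and 0 with only the compared groups. The difference between the sets, 0 genes, became 3 with quantile normalization and 51 in a joint fit of both sets. The causes were not tested. The shallowest library, bone marrow HET 1 at 3.96 M fragments, listed 3633 genes above 0, against 8194 to 8526 in bone marrow WT. At 34.0 and 35.8 M fragments bone marrow KO 2 and KO 3 listed 8519 and 8405, and in vitro libraries listed 16779 to 18029.

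Deviations from the genotype mean correlated at -0.303 to 0.181 between same-numbered libraries in vitro and at -0.0191 to 0.0323 in bone marrow. For HET and KO in vitro, same-numbered pairs (0.0501 to 0.181) lay above all others (at most 0.0331). For WT and HET in vitro they lay below (-0.261 to -0.144, with the others at -0.0666 or more). With so few libraries per genotype, these values cannot decide whether the numbers pair the samples. With the replicate number as a block the genes called were 172 in KO against WT, 234 in HET against WT and 160 in KO against HET in vitro, and 0 in bone marrow HET against WT and in KO against HET. Members called were 3, 2 and 1 in vitro with the block.

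Leaving out each library in turn gave 66 to 475 genes and 2 to 3 members in KO against WT in vitro, 84 to 628 genes and 1 to 3 members in HET against WT, and 73 to 344 genes and 0 to 1 members in KO against HET. In bone marrow it gave 0 to 4 genes in KO against WT, 0 to 323 in HET against WT, and 0 to 330 genes and 0 to 1 members in KO against HET. Without WT 1 the members called in vitro were 2 higher and 1 lower in KO against WT (Klf2) and 1 higher and 2 lower in HET against WT (Klf2 and Egr1).

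Signs turned as follows, in log2 change. Egr1 in HET against WT was 0.066 in vitro with quantile normalization and -0.12 in bone marrow with the block. In bone marrow with quantile normalization Nr4a2 and Klf4 were 0.99 and 1.53 in HET against WT, and Klf2 and Klf4 were 0.15 and -0.86 in KO against HET, with Klf2 at 0.20 under median-ratio size factors. The difference between the sets for Ier2 was -0.10 under median-ratio size factors. None of these passed the threshold. Leaving out a library turned the sign of some members, and the ranges were as follows. With KO against WT in vitro, Egr1 ranged from -0.14 to 0.48, Klf2 ranged from -1.23 to 0.94 and Klf6 ranged from -0.27 to 0.030. With HET against WT in vitro, Egr1 ranged from -0.41 to 0.20, Nr4a2 ranged from -0.090 to 0.16 and Klf2 ranged from -1.24 to 0.93. With KO against HET in vitro, Klf2 ranged from -0.12 to 0.11, Klf4 ranged from -0.099 to 0.13 and Klf6 ranged from -0.026 to 0.25. With KO against WT in bone marrow, Nr4a1 ranged from -0.024 to 0.80 and Klf4 ranged from -0.10 to 1.15. With HET against WT in bone marrow, Egr1 ranged from -1.21 to 2.02, Nr4a2 ranged from -1.87 to 1.04, Klf4 ranged from -2.57 to 1.37 and Ier2 ranged from -0.93 to 0.64. With KO against HET in bone marrow, Nr4a1 ranged from -1.67 to 0.036, Nr4a2 ranged from -2.75 to 0.16, Klf2 ranged from -0.30 to 0.23, Klf4 ranged from -0.93 to 3.01 and Ier2 ranged from -0.21 to 1.36. For the difference between the sets they were -0.12 to 1.14 for Klf4 and -0.18 to 0.37 for Ier2. Differences of the genes outside the fit in vitro were -0.012 to 0.024 for Nr4a3 in KO against WT, -0.019 to 0.011 for Nr4a3 in HET against WT, -0.097 to 0.074 for Egr3 in KO against HET, -0.0042 to 0.026 for Nr4a3 in KO against HET.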
